A study of Xenopus tropicalis with 4 samples.

Results

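The keratin genes of Xenopus tropicalis were examined in ectodermal explants (animal caps) of early gastrulae, together with vim (vimentin) and nes (nestin). Members were all gene symbols in the count tables that begin with krt and a digit, plus vim and nes, which gave 45 genes (43 keratin genes) of 28850. RNA was sequenced from 2 Foxh1 MO and 2 control MO libraries. Both groups were labelled wild type, came from stage 10.5 caps and were raised at 25 °C. Fertilised eggs had received 22.5 ng of a Foxh1 morpholino oligonucleotide (MO, a synthetic antisense oligonucleotide) or of a standard control MO, so the control group was injected too. Neither the number of explants per library nor their clutches are in the labels. The p-values therefore describe the variation among these 4 libraries, part or all of which may be technical.

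Keratins are the intermediate filament proteins of epithelia. An acidic type I keratin pairs with a basic type II keratin, the pairs assemble into filaments, and desmosomes and hemidesmosomes anchor those filaments at the cell surface. In vertebrates Krt8 and Krt7 are type II and Krt18, Krt19 and Krt12 are type I, and Krt8 with Krt18 is the usual pair of simple epithelia. In amphibian embryos epidermal keratin transcripts are a classical marker of ectoderm that has taken the epidermal path, while nestin is an intermediate filament protein of neural progenitors and vimentin one of mesenchymal and early neural cells.

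Expected counts summed to 25632619 to 29800530 per library. Defining ectoderm genes were present in every library, among them the adhesion gene epcam at 1068 and 1121 CPM (read counts scaled to library size) in Foxh1 MO and 1076 and 1067 CPM in control MO. Not all were level between the groups. Of 7 tested ectoderm markers, foxi1, tfap2a and grhl1 were higher in Foxh1 MO and sox3 lower (edgeR adjusted p under 0.05). The other 3, epcam among them, were not called, and 8.24% of all tested genes were called. The 10 endoderm markers summed to 17.2 and 17.6 CPM in Foxh1 MO and 21.3 and 27.9 CPM in control MO. For foxh1 itself, 264 and 174 CPM were measured in Foxh1 MO, against 79.3 and 71.2 CPM in control MO. The transcript is thus higher in the libraries labelled Foxh1 MO, and since a transcript level does not measure the blocked protein, directions below are those of libraries carrying that label.

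Of the 45 members, 11 had enough reads to be tested (9 keratin genes, vim and nes). In the libraries labelled Foxh1 MO the epidermal keratin gene krt70 rose 1.57-fold, krt12.4, a gene of the same chromosomal row, was called 1.96-fold lower and nes was 2.63-fold lower. In whole explants, fewer cells of a type and less RNA per cell cannot be told apart. These 3 calls of 11 tested stand beside 8.24% of all 13756 tested genes, of which 4.17% were higher and 4.07% lower (edgeR quasi-likelihood test, Benjamini-Hochberg adjusted p under 0.05). The other 8 tested members were not called, among them the abundant krt7, krt8.1, krt12.3 and krt18.1. The median log2 fold change of the 11 was -0.26, against -0.00019 for all tested genes. For 6 of the 11, 1 higher and 5 lower, the CPM of both Foxh1 MO libraries lay outside the control range, as was so for 50.8% of all tested genes. Of the 5 lower, krt18.3 and krt222 passed the read filter only through control MO, where they were high, which also bears on the median. Members that passed the read filter are not a sample of the family, so these counts describe the 11 genes only.

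**Figure D1:**
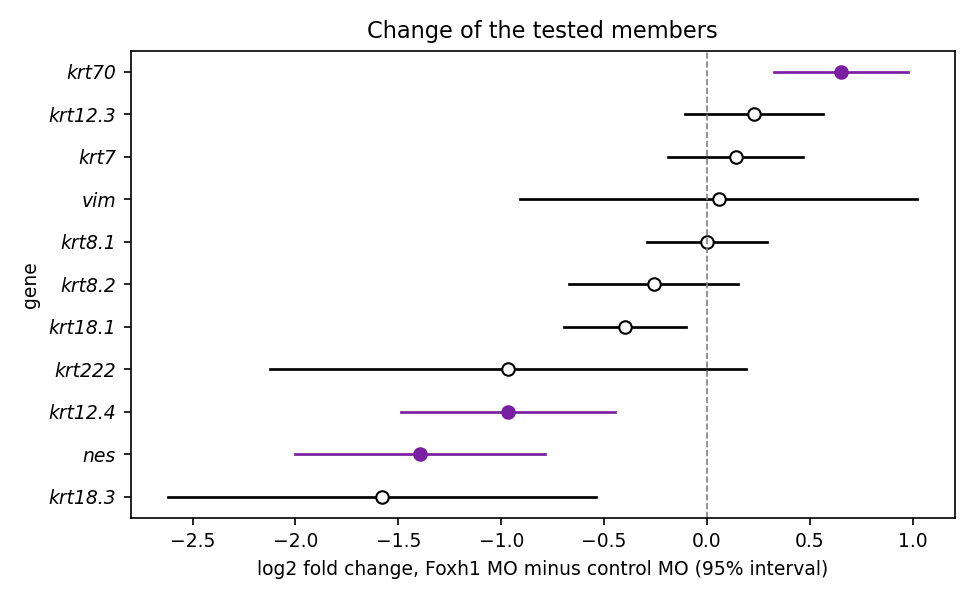
Log2 fold change (Foxh1 MO minus control MO) of the 11 tested members on the horizontal axis, with its 95% interval as a line; filled points were called at an adjusted p under 0.05 and open points were not. The value of krt70 is 0.65 and the lowest values are those of nes (-1.39) and krt18.3 (-1.58), while krt8.1 sits at 0.

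Keratin transcript in the caps came almost entirely from 5 genes. Per length, krt7, krt8.1, krt70, krt12.3 and krt18.1 held 98.9% and 99.1% of the summed keratin TPM (transcript level scaled to gene length and library) in the libraries labelled Foxh1 MO, and 98.6% and 98.3% in control MO. The 43 keratin genes together summed to 2322 and 2769 TPM in Foxh1 MO (mean 2545 ± 316, SD, n = 2) and to 2281 and 2436 TPM in control MO (mean 2359 ± 110.0, SD, n = 2). The ratio of the means was 1.08, and the ranges overlapped, so the summed level did not differ beyond the spread between libraries. The other 38 keratin genes summed to 24.9 and 25.8 TPM in Foxh1 MO and to 31.6 and 42.4 TPM in control MO.

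The order of the 5 abundant genes differed between the groups. In the libraries labelled Foxh1 MO, krt7 came first (686 ± 114 TPM, SD, n = 2) and krt70 second (640.3 ± 119 TPM), and their ranges overlapped. They were followed by krt8.1 (439 ± 7.0 TPM) and krt12.3 (426 ± 74.7 TPM), which also overlapped, and krt18.1 was lowest (329 ± 0.410 TPM). In control MO, krt7 was again first (637 ± 47.6 TPM), followed by krt8.1 (450.03 ± 12.9 TPM) and krt18.1 (445 ± 12.7 TPM), which overlapped, then krt70 (417 ± 6.30 TPM) and krt12.3 (372 ± 22.9 TPM). Thus krt70 stood above krt8.1 and krt18.1 in Foxh1 MO and below both in control MO. Among all gene models ranked by TPM, krt70 was at rank 155 and 125 in Foxh1 MO and at 252 and 245 in control MO.

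**Figure D2:**
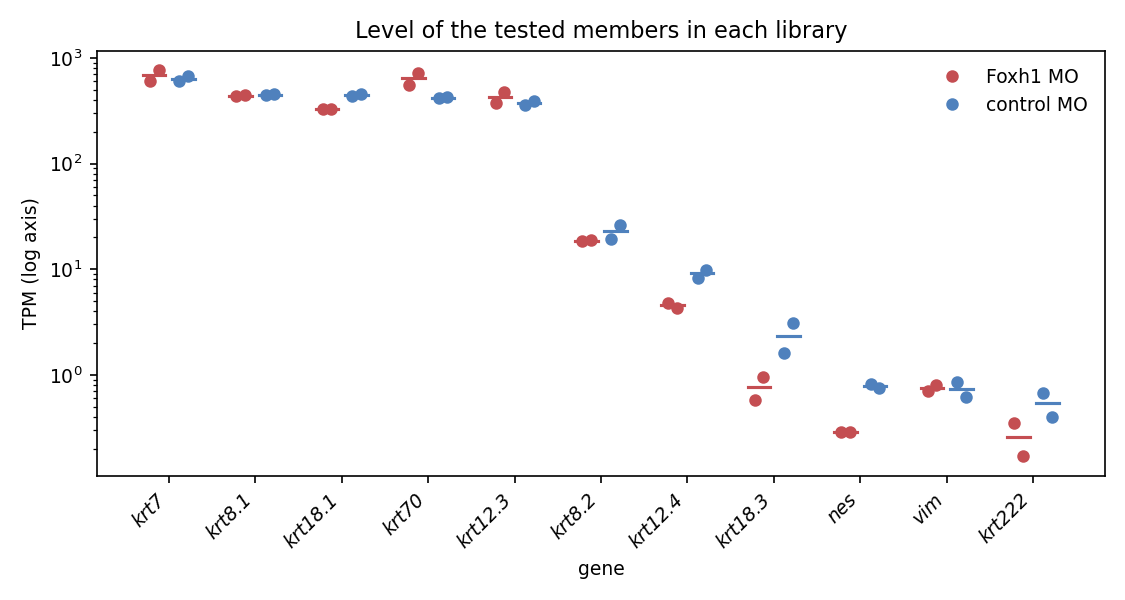
TPM (log axis) of the 11 tested members in each library, with a horizontal bar at each group mean of 2 libraries. The 5 abundant keratin genes lie between 328 and 767 TPM in every library, krt8.2 between 18.3 and 26.3, and the remaining members under 10 TPM; in TPM the points of the 2 groups are apart for krt70, krt18.1, krt12.4, krt18.3, nes, krt222 and, by a small gap, krt8.2, whose CPM overlapped.

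For the simple epithelial pair, the ratio of krt8.1 to krt18.1 was higher in both Foxh1 MO libraries than in both control MO libraries. The type II gene krt8.1 stood at 390 and 386 CPM in the libraries labelled Foxh1 MO and at 362 and 413 CPM in control MO. Its groups overlapped, its log2 fold change was 0.00081 (SE 0.13) and its 95% interval was 0.82-fold to 1.22-fold. The type I partner gene krt18.1 stood at 177 and 172 CPM in Foxh1 MO, below both control MO libraries at 214 and 246 CPM. Its log2 fold change was -0.40 (SE 0.14, 95% interval -0.70 to -0.10), but it was not called over all genes (edgeR quasi-likelihood adjusted p = 0.101), and was called without Foxh1 MO 1 (adjusted p = 0.0300).

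Within each library, krt8.1 transcripts per krt18.1 transcript (ratio of TPM) numbered 1.32 and 1.35 in Foxh1 MO and 1.012 and 1.012 in control MO. The 2 ranges did not overlap, but 2 libraries per group give little measure of the spread. The ratio was picked after its values were seen and carries no test, and an exact permutation test of 2 against 2 libraries cannot give a two-sided p below 0.333.

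A second pair of the same names, krt8.2 and krt18.3, lies side by side in the annotation and was far less abundant. The level of krt8.2 was 18.3 and 19.0 TPM in Foxh1 MO and 19.3 and 26.3 TPM in control MO, so both Foxh1 MO libraries were lower on that scale. In CPM the groups overlapped (15.04 and 15.1 in Foxh1 MO, 14.4 and 21.7 in control MO), and krt8.2 was not called (log2 fold change -0.26, SE 0.19, adjusted p = 0.486 by edgeR). For krt18.3 only 9 and 14 reads were counted in Foxh1 MO, against 26 and 50 in control MO. Both Foxh1 MO libraries were thus lower, with a log2 fold change of -1.58 (SE 0.48). The gene passed the read filter only through control MO, where it was high, since Foxh1 MO 1 fell short of it. Its value and calls are therefore no independent support. The gene krt18.3 was not called here (edgeR adjusted p = 0.0637), while the authors' deposited table gives it a log2 fold change of -1.55 and a false discovery rate of 0.0163. An edgeR fit that also included the replicate number gave nearly the same values (-1.55, adjusted p = 0.0158), so the difference may lie in the model. With DESeq2 size factors (adjusted p = 0.0534), ribosomal RNA models left out (0.0626) or the effective length offset (0.0728), edgeR did not call krt18.3. Nor did limma-voom (0.0963) or the DESeq2 Wald test (0.215). Limma on log2 of TPM plus 1 (adjusted p = 0.00135) or plus 0.1 (0.00189) called krt18.3 lower. Upper-quartile scaling (adjusted p = 0.0207) or leaving out control MO 1 (log2 fold change -2.03, adjusted p = 0.00277) also called it, and leaving out control MO 2 gave -0.95 (adjusted p = 0.518).

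The type II gene krt7, a keratin of simple and glandular epithelia in mammals, was the most abundant keratin transcript. It stood at 637 and 780 CPM in Foxh1 MO and at 580 and 706 CPM in control MO, so the groups overlapped. Its log2 fold change was 0.14 (SE 0.15, 95% interval 0.88-fold to 1.38-fold, edgeR adjusted p = 0.671), and without Foxh1 MO 2 it turned to -0.02.

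The gene krt70, which RefSeq also lists as xk70, showed the only call upward. It stood at 346 and 438 CPM in the libraries labelled Foxh1 MO (392 ± 64.6, SD, n = 2) and at 234 and 264 CPM in control MO (249 ± 21.2, SD, n = 2). Both Foxh1 MO libraries lay above both control libraries. The log2 fold change was 0.65 (SE 0.15, 95% interval 1.25-fold to 1.97-fold, edgeR quasi-likelihood adjusted p = 0.0197). The call ended without control MO 1 (log2 fold change 0.57, adjusted p = 0.152) and held without any other single library (log2 fold change 0.47 to 0.82).

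The gene krt12.3 lies in the same row of genes and is nearly as abundant as krt70 in control caps. It stood at 213 and 265 CPM in Foxh1 MO and at 185 and 223 CPM in control MO, which overlap. Its log2 fold change was 0.23 (SE 0.15, edgeR adjusted p = 0.446), and it was called only without Foxh1 MO 1 (0.38, adjusted p = 0.0393). Libraries ranked alike in CPM for krt12.3 and krt7, from control MO 1 as the lowest through Foxh1 MO 1 and control MO 2 to Foxh1 MO 2. The number of krt12.3 transcripts per krt7 transcript (ratio of TPM) was 0.617 and 0.625 in Foxh1 MO and 0.590 and 0.579 in control MO. That ratio was thus slightly higher in both Foxh1 MO libraries. Relative to krt12.3 and to krt7, krt70 was higher in Foxh1 MO. There were 1.49 and 1.51 krt70 transcripts per krt12.3 transcript in Foxh1 MO and 1.16 and 1.09 in control MO, and 0.919 and 0.945 per krt7 transcript in Foxh1 MO and 0.684 and 0.629 in control MO. These ratios were chosen after their values were seen and carry no test.

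**Figure D3:**
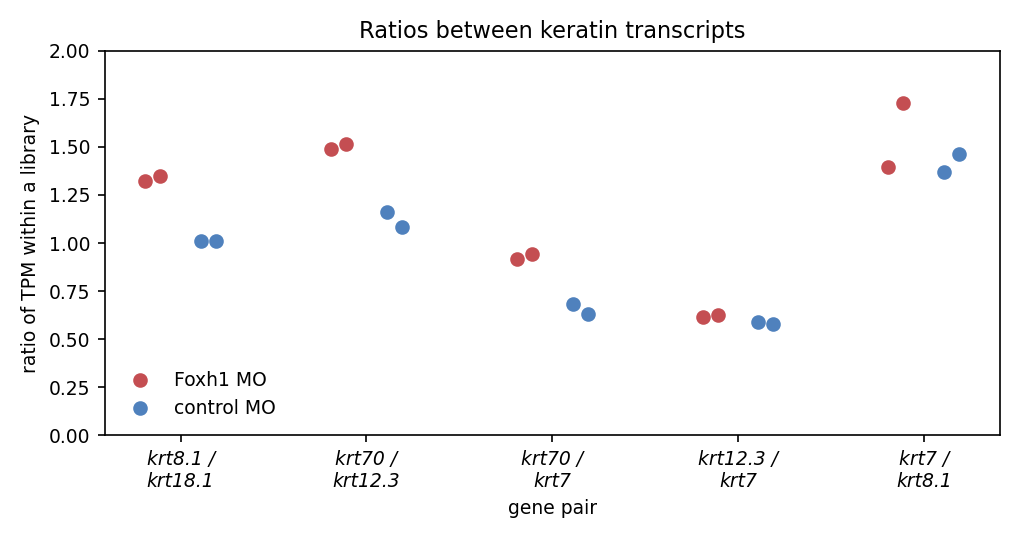
Ratio of the TPM of 2 keratin transcripts within a library, 1 point per library, for 5 pairs of genes. The ratio of krt8.1 to krt18.1 is 1.32 and 1.35 in Foxh1 MO and 1.012 in both control MO libraries. In Foxh1 MO krt70 is likewise higher relative to krt12.3 and krt7, and krt12.3 is slightly higher relative to krt7. The ratio of krt7 to krt8.1 overlaps between groups.

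The gene krt12.4, which RefSeq also lists as epi-keratin, is the classical epidermal keratin of neural induction assays in Xenopus. It was given 2.74 and 2.38 CPM in Foxh1 MO and 4.33 and 5.70 CPM in control MO, so both Foxh1 MO libraries were lower. The log2 fold change was -0.97 (SE 0.24, edgeR quasi-likelihood adjusted p = 0.0269). It was not called without Foxh1 MO 2 (-0.88, adjusted p = 0.111), without control MO 2 (-0.76, adjusted p = 0.138) or by the DESeq2 Wald test (adjusted p = 0.0682).

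This value depends on how reads were divided between krt12.3 and its neighbour krt12.4. They were the only 2 members with fractional expected counts, 5833.51 with 75.49 and 7028.94 with 63.06 in Foxh1 MO, and 5804.18 with 135.82 and 6343.69 with 162.31 in control MO. In each library the 2 numbers add up to a whole count (to within 0.01), so the estimation split reads that matched both genes. The part given to krt12.4 was 1.28% and 0.889% in Foxh1 MO and 2.29% and 2.49% in control MO. With both genes summed before the fit, an alternative chosen after the fractions were seen, the pair stood at 216 and 267 CPM in Foxh1 MO and 189 and 229 CPM in control MO. Its log2 fold change was 0.21 (SE 0.15, edgeR adjusted p = 0.492). The level of krt12.4 by itself is therefore uncertain, and the summed pair was not called.

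**Figure D4:**
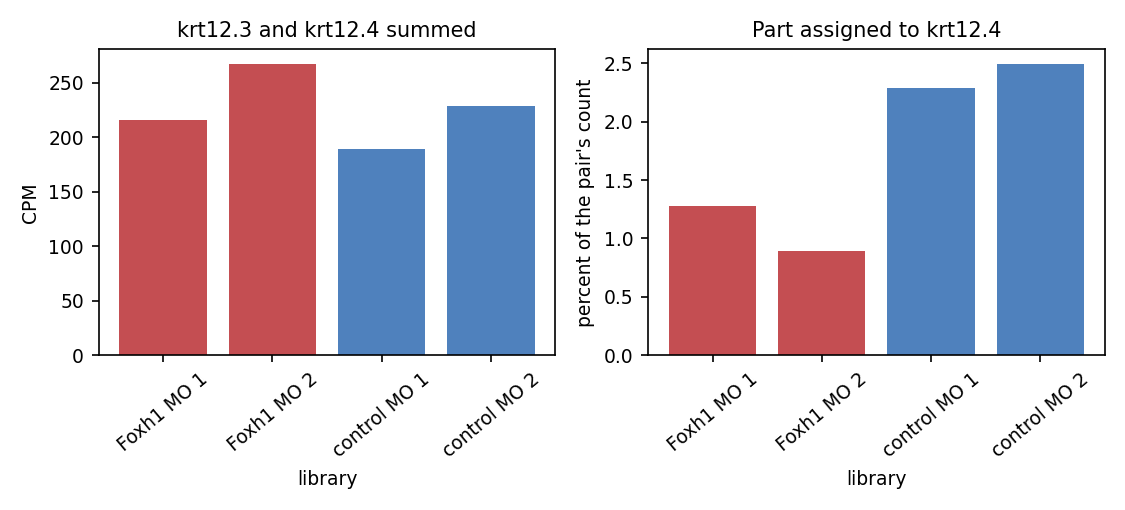
Left, summed CPM of krt12.3 and krt12.4 in each library; right, percent of the pair's expected count that was assigned to krt12.4. The sums of Foxh1 MO (216 and 267 CPM) and control MO (189 and 229 CPM) overlap, while the assigned part is 1.28% and 0.889% in Foxh1 MO and 2.29% and 2.49% in control MO.

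In the annotation, 40 of the 43 keratin genes fall into 2 rows of neighbours, and few genes of each row were used in the caps. One row holds 24 keratin genes from krt70 to krt222, with at most 1 other gene between neighbours. Only krt70 and krt12.3 exceeded 100 TPM in every library there, 21 of the 24 stayed under 1 TPM in every library, and 10 had no read at all. The row's 24 genes summed to 935 and 1209 TPM in Foxh1 MO and 779 and 822 TPM in control MO, a ratio of means of 1.34. The other row holds 16 keratin genes and runs from krt18.1 and krt8.1 at its start to krt7 and krt80 at its end. These 3 genes, krt18.1, krt8.1 and krt7, exceeded 100 TPM in every library, none of the other 13 passed 1.44 TPM in any library, and 6 had no read. The row summed to 1367 and 1540 TPM in Foxh1 MO and 1481 and 1585 TPM in control MO, a ratio of means of 0.948. The first row was higher in both Foxh1 MO libraries than in both control libraries, and the second overlapped. Within the first row, krt70 was apart, at 556 and 725 TPM in Foxh1 MO and 413 and 422 TPM in control MO. The groups overlapped for krt12.3, at 373 and 479 TPM in Foxh1 MO and 356 and 389 TPM in control MO. Neither sum is independent of its most abundant members, among them krt70 in the first row and krt7 in the second.

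**Figure D5:**
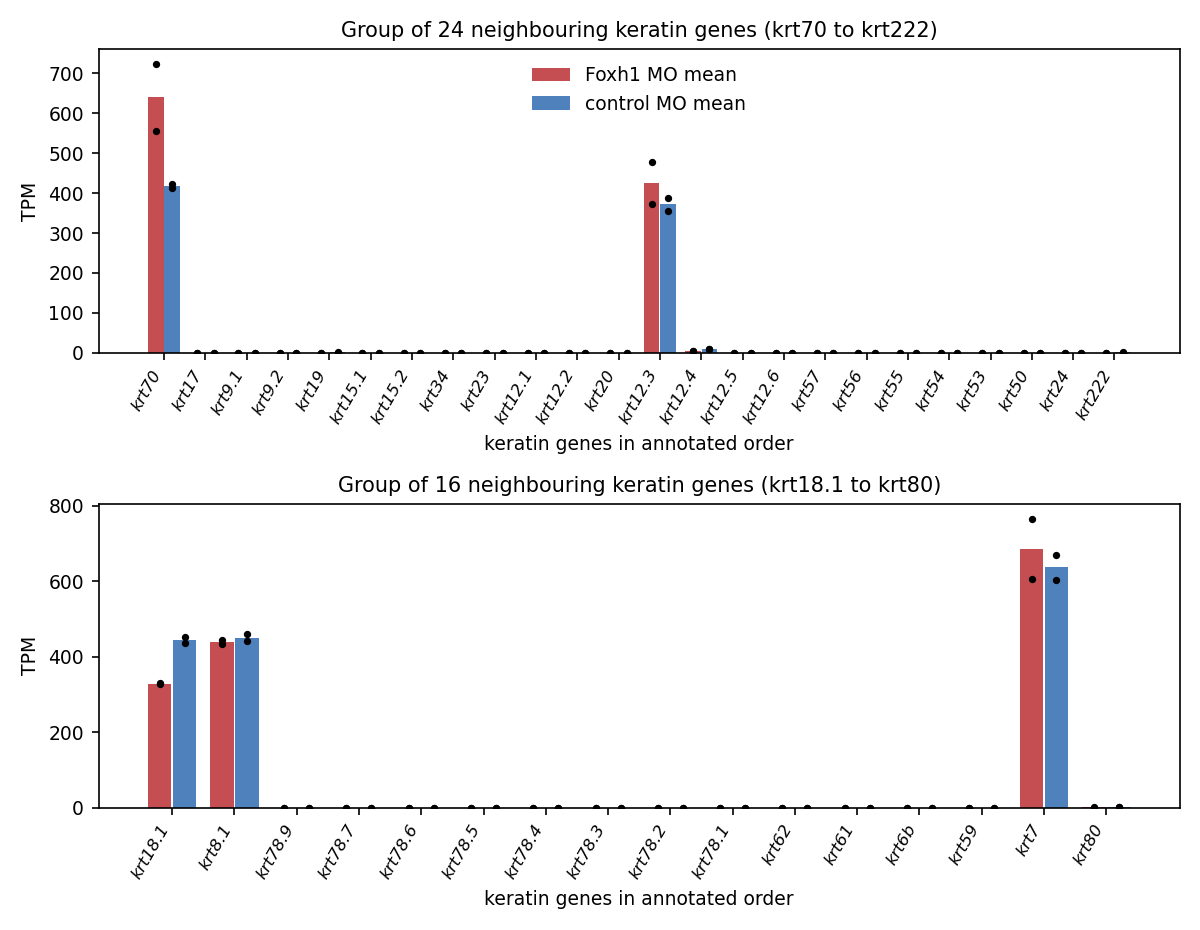
Mean TPM of each group (bars) and TPM of each library (points) for the keratin genes of both rows, in annotated order. Tall bars stand at krt70 and krt12.3 in the upper panel (24 genes) and at krt18.1, krt8.1 and krt7 in the lower panel (16 genes), with the genes between them near 0.

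A further 34 keratin genes were too low to test. Of these, 17 had no read in any library, which allows a level of up to 0.101 to 0.117 CPM per library (3 counts of the library total, for counting error only). The other 17 had between 1 and 34 reads over all 4 libraries. The lowest of the tested keratin genes, krt222, had 11 and 5 reads in Foxh1 MO and 22 and 13 in control MO, and was not called (log2 fold change -0.96, SE 0.53, edgeR adjusted p = 0.332).

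The neural filament gene nes fell by the most among the called members. It stood at 1.2 and 1.13 CPM in the libraries labelled Foxh1 MO, from 33 and 30 reads, against 3.06 and 3.10 CPM in control MO, from 96 and 88 reads. Per length nes was low, at 0.29 and 0.29 TPM in Foxh1 MO and 0.82 and 0.76 TPM in control MO. The Foxh1 MO libraries were both lower (1.17 ± 0.0516 against 3.08 ± 0.0253 CPM, SD, n = 2). With so few reads and 2 libraries per group, these small SDs do not measure precision. The log2 fold change was -1.39 (SE 0.28, edgeR quasi-likelihood adjusted p = 0.00940), and it was -1.44 to -1.36 without each library in turn, with an adjusted p of at most 0.0438. Neural ectoderm markers moved with it: 6 of 9 tested fell and 3 were not called, against 4.07% lower among all tested genes. These markers were listed with earlier results of these data known, so the count is no independent support. The 9 summed to 485 and 409 CPM in Foxh1 MO and 702 and 769 CPM in control MO. Only 3 of the 9 were called lower without Foxh1 MO 2, without control MO 2 or by the DESeq2 Wald test. The part of neural cells in this result was not tested.

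The mesenchymal filament gene vim was low, at a TPM near that of nes in control MO. It had 14 and 15 reads in Foxh1 MO and 18 and 13 in control MO, and 0.70 and 0.80 TPM in Foxh1 MO against 0.86 and 0.62 TPM in control MO. The groups overlapped. With so few reads and 2 libraries per group, changes within the 95% interval of 0.53-fold to 2.03-fold remain compatible with the data. Among all tested genes 4.07% were called lower, and the markers below were listed with earlier results of these data known. Of 6 tested mesoderm and organizer markers 3 fell and 3 were not called (1 was lower without Foxh1 MO 2), and the 11 in the tables summed to 11.9 and 11.6 CPM in Foxh1 MO and 17.7 and 22.1 CPM in control MO.

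Among 8 other tested intermediate filament genes, 1 rose, 1 fell and 6 were not called (median log2 fold change -0.29). Of all tested genes 8.24% were called. The lamin gene lmnb3, the main lamin of the frog egg and early embryo, rose to 136 and 136 CPM in Foxh1 MO, against 85.4 and 76.5 CPM in control MO (1.68-fold, edgeR adjusted p = 0.00537). The neurofilament gene nefl fell to 4.82 and 5.28 CPM in Foxh1 MO, against 10.01 and 12.03 CPM in control MO (log2 fold change -1.12, adjusted p = 0.00300). The lamin genes lmnb1 (-0.08 on the log2 scale) and lmnb2 (0.06) had the highest CPM of those not called. The call of lmnb3 ended without control MO 2 (adjusted p = 0.0681).

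Of 21 tested genes that anchor and crosslink keratin filaments, 1 rose, 1 fell and 19 were not called (median -0.13), a share of calls close to the 8.24% of all tested genes. The gene eppk1, for the keratin-binding plakin epiplakin, rose to 266 and 213 CPM in Foxh1 MO, against 166 and 162 CPM in control MO (1.46-fold, edgeR adjusted p = 0.0388), and was not called without control MO 1 (adjusted p = 0.160) or control MO 2 (0.217). The call of eppk1 also ended by limma on log2 of TPM plus 1 (adjusted p = 0.109) or plus 0.1 (0.0938). In edgeR it ended with the replicate block (adjusted p = 0.0524). The hemidesmosomal collagen gene col17a1 was the 1 that fell, with 0.00 and 0.113 CPM in Foxh1 MO, against 0.829 and 1.09 CPM in control MO. These are 0 and 3 reads against 26 and 31. It passed the read filter only through the control group, where it was high, so its call (edgeR adjusted p = 0.00556) is no independent support. The plakin gene plec (plectin) and the desmosomal gene jup (plakoglobin) had the highest CPM of those not called, with log2 fold changes of -0.56 for plec and -0.30 for jup. In edgeR, plec was called lower with upper-quartile scaling (adjusted p = 0.0247), no read filter (0.0166) or the replicate block (0.0242). Limma on log2 of TPM plus 1 (0.0356) or plus 0.1 (0.0237) also called plec lower. It was not called with DESeq2 size factors (0.0929), by limma-voom (0.0821) or by the DESeq2 Wald test (0.0761). The values of plec and jup also depended on single libraries. Without Foxh1 MO 1 the log2 fold changes were -0.49 for jup and -0.97 for plec, and without Foxh1 MO 2 they were -0.13 and -0.24.

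Among all tested genes 4.17% were called higher and 4.07% lower. Of 19 tested transcription factor genes of the epidermal path, 9 rose, 1 fell and 9 were not called (median 0.51). One of them, tfap2a, encodes an activator of epidermal keratin genes in Xenopus, and stood at 379 and 392 CPM in Foxh1 MO against 230.4 and 251 CPM in control MO. Its relative tfap2c, not called, was at 579 and 488 CPM in Foxh1 MO and 509 and 504 CPM in control MO, and klf17 at 382 and 338 CPM in Foxh1 MO and 263 and 270.2 CPM in control MO (log2 fold change 0.43, edgeR adjusted p = 0.0699). Both are the genes of highest CPM among those not called. Since the list was chosen with earlier results of these data known, its counts are no independent support.

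The other higher calls ran from abundant to scarce genes. The grainyhead-like gene grhl1, a regulator of epidermal differentiation in Xenopus, stood at 204 and 194 CPM in Foxh1 MO and 119.7 and 106 CPM in control MO. The Krüppel-like gene klf5 had 108 and 114 CPM in Foxh1 MO and 75.6 and 80.1 CPM in control MO. Of the targets of BMP signalling, which promotes epidermis over neural tissue, gata2 stood at 84.6 and 76.3 CPM in Foxh1 MO and 46.6 and 51.6 CPM in control MO. For ventx1.2 the values were 53.1 and 39.8 CPM in Foxh1 MO and 27.0 and 26.2 CPM in control MO. These rest on fractional expected counts, so they may depend on how shared reads were divided. The gene msx1 had 15.1 and 11.2 CPM in Foxh1 MO and 5.93 and 7.63 CPM in control MO. For dlx3, a homeobox gene of non-neural ectoderm, 11.3 and 14.9 CPM were measured in Foxh1 MO and 4.56 and 6.75 CPM in control MO. The ionocyte regulator foxi1 stood at 63.5 and 97.7 CPM in Foxh1 MO and 35.9 and 50.3 CPM in control MO. The epithelial ETS gene elf3 was low, with 1.497 and 2.72 CPM in Foxh1 MO and 0.765 and 0.633 CPM in control MO. In each of these 8 genes both Foxh1 MO libraries lay above both control libraries, with log2 fold changes of 0.51 (klf5) to 1.58 (elf3). Since these genes were picked by their calls in the same libraries, that separation adds no support. The CPM of the groups did not overlap, in either direction, for 50.8% of all tested genes. The only call lower was tfap2e, of the same family as tfap2a. It stood at 1.90 and 2.30 CPM in Foxh1 MO and 4.33 and 4.40 CPM in control MO. Its log2 fold change was -1.06 (edgeR adjusted p = 0.0188), and it was not called by the DESeq2 Wald test (adjusted p = 0.0542). Named after their values were seen, klf4 and gata3 were also lower in both Foxh1 MO libraries but not called. Their log2 fold changes were -1.44 (edgeR adjusted p = 0.0508) and -1.21 (0.119). In edgeR, klf4 was called lower with DESeq2 size factors, upper-quartile scaling, no read filter, the replicate block or ribosomal RNA models left out. A filter of at least 1 CPM in 2 libraries also gave klf4 a lower call. Limma on log2 of TPM plus 1 or plus 0.1 called both klf4 and gata3 lower. Neither was called by limma-voom, by the DESeq2 Wald test or in edgeR with the effective length offset. Of the 19 genes, 14 had a positive log2 fold change.

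The calls of tfap2a, foxi1, gata2, klf5 and elf3 depended on single libraries, and those of elf3, klf5 and tfap2e on the method. The call of elf3 ended by the DESeq2 Wald test (adjusted p = 0.0677). That of klf5 ended by limma on log2 of TPM plus 1 (adjusted p = 0.0542) or plus 0.1 (0.0551), and in edgeR with the replicate block (0.0725). Without control MO 1, the library that also decided krt70, 5 of the 19 were called higher, and the calls of tfap2a (edgeR adjusted p = 0.106), foxi1 (0.0518), gata2 (0.0716) and klf5 (0.257) ended. Without Foxh1 MO 2 the calls of foxi1 (0.0914), elf3 (0.268) and klf5 (0.0769) ended and klf17 gained one, which left 7. Without control MO 2 klf5 was lost (0.169), which left 8. The calls of grhl1, dlx3, msx1 and ventx1.2, and the lower call of tfap2e, held without each library in turn.

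Of 19 tested epidermal surface and junction genes, 3 rose and 16 were not called by edgeR (median 0.0025), beside 4.17% higher among all tested genes. This list, too, was chosen with earlier results of these data known. The uroplakin gene upk1b rose 1.59-fold (268 and 296 CPM in Foxh1 MO, 179 and 176 CPM in control MO) and the hyaluronan synthase gene has1 1.54-fold (932 and 962 CPM in Foxh1 MO, 513 and 714 CPM in control MO). The gene upk3b was the third, at 88.4 and 108 CPM in Foxh1 MO and 71.0 and 60.3 CPM in control MO. Leaving out control MO 1 ended the calls of has1 (adjusted p = 0.389) and upk1b (0.0627), control MO 2 those of upk1b (0.0846) and upk3b (0.290), and Foxh1 MO 2 that of upk3b (0.153). The groups overlapped for epcam (log2 fold change 0.03) and the claudin gene cldn7 (-0.08), which had the highest CPM of those not called. The claudin gene cldn6.1 had fractional expected counts, so its level may depend on how shared reads were divided. By TPM cldn6.1, named here for its level after the values were seen, was above cldn7, at a mean of 1608 TPM in Foxh1 MO and 2221 TPM in control MO. It was not called by edgeR (log2 fold change -0.43, adjusted p = 0.0787), and was called lower by the DESeq2 Wald test, with no read filter and without either Foxh1 MO library.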

How the data were processed

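Per the labels, poly(A) RNA was selected from Trizol extracts of animal caps and sequenced. The deposited tables hold RSEM expected counts, TPM, FPKM, lengths and effective lengths per gene (per the file headers), all on a linear scale; the submitters' processing notes name RSEM 1.3.3, STAR 2.7.3a, R 4.1.2 and edgeR 3.36.0. Build and strand setting are not given in the sources used here. FPKM was not tested. The authors' comparison table gives a log2 fold change, log2 CPM, an F score, a false discovery rate and a p-value (deposited by the authors, per the file headers); for 853 of 853 genes with an absolute log2 fold change over 1, its sign was that of Foxh1 MO over control MO.

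Expected counts were rounded and tested with edgeR 4.0.16 in R 4.3.3 (filterByExpr, minimum count 10 and total 15, 13756 genes left; TMM; quasi-likelihood F test, 2 residual and 10.5 prior degrees of freedom; Benjamini-Hochberg over all genes). Log2 fold changes are Foxh1 MO minus control MO, and their SE is the absolute value over the root of F. The 95% intervals use the t distribution with the same degrees of freedom. CPM are TMM-scaled, and levels are compared between genes only as TPM. The fit was tested on simulated data. Ribosomal RNA gene models took 28.3% to 34.0% of counts. RefSeq names and gene order (UCB_Xtro_10.0) matched all 45 members by accession. Keratin types from protein identity, promoters and keratins under locus symbols were not analysed here, since the reference used holds no sequence or description.

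The members and gene lists were chosen with earlier results of these data known. Named were called members, those of at least 5 CPM and, from each list, called genes and the 2 not called with the highest CPM. Alternatives were DESeq2 1.42.0, limma 3.58.1 (voom, and log2 of TPM plus 1 or 0.1), other scalings, filters and thresholds, an effective length offset, ribosomal RNA models left out, the replicate block and each library left out. A lone library was then assumed to vary like the other group.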

Additional observations from a re-analysis of the deposited data

How the results depend on the processing

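The directions of krt70 and nes held under all 16 alternatives, and that of krt12.4 under the 15 in which it was fitted by itself; the summed pair krt12.3 and krt12.4 was at 0.21. Among 172 values of the 11 tested members under alternatives, 4 ended a call, 8 gained one and 12 had another sign (krt8.1, krt7, krt8.2 and vim, none called in any of them). The count of members called higher (1) was 0 to 2 without each library in turn, and 0 at an adjusted p under 0.01, where 1 was lower. The count called lower (2) was 1 to 4 without each library in turn (the 4, without control MO 1, include krt80, which the read filter let through there on control MO 2 alone), 1 by DESeq2 (nes), 1 with krt12.3 and krt12.4 summed (nes), and 4 with no filter, which added krt18.3 and krt80. Over all genes, 874 were higher at an adjusted p under 0.1, and 210 higher and 220 lower under 0.01; the count lower was 872 on log2 of TPM plus 0.1, 862 with no filter, and 337 to 1493 without each library in turn. The members' median (-0.26) was -0.50 to -0.090 without each library in turn and -0.27 to -0.13 under the other alternatives. The causes were not tested. With log2 of TPM plus 1 the value of nes was -0.47, since a pseudocount of 1 exceeds its level.

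The labels do not say that a replicate number marks a shared clutch or day, and deviations of same-numbered libraries correlated at -0.08 across genes. With the replicate block, 546 genes were higher and 699 lower; among members krt70 was higher (1) and 3 were lower, since krt18.3 gained a call (adjusted p = 0.0158). The authors' deposited log2 fold changes were closer to this blocked fit than to the main one for several members. For krt18.3 they gave -1.554, against -1.555 with the block and -1.579 without it. For krt8.2 they gave -0.233, against -0.233 and -0.259, and for krt70 0.646, against 0.646 and 0.653. For krt7 and nes the values nearly coincided. Whether the authors used the replicate number was not tested. Depth limits krt18.3, krt222, vim and the 34 untested genes most.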

Other observations

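Of the keratin genes too low for the read filter, 3 are given as values chosen after they were seen. The gene krt80, a type II keratin of epithelia in mammals that lies next to krt7, had 1 and 3 reads in Foxh1 MO and 7 and 23 in control MO; with no filter its log2 fold change was -2.71 (edgeR adjusted p = 0.0229). The type I gene krt19 had 2 and 3 reads in Foxh1 MO and 6 and 10 in control MO, with an adjusted p of 0.460 by edgeR with no filter. In the other direction, krt78.3 had 3 and 3 reads in Foxh1 MO and 0 in both control MO libraries (adjusted p = 0.262 by edgeR with no filter), which is at the floor of 3 counts.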
